A study of Mus musculus with 6 samples.

Results

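The genes Yap1, Wwtr1 (which encodes TAZ), Tead1, Tead2, Tead3 and Tead4 encode the effectors of the Hippo pathway, and their marking by H3K4me1 was read from peak lists of mouse whisker pads. H3K4me1, the monomethylation of lysine 4 of histone H3, is a mark of enhancers, both active ones and those that are only primed. The genes were chosen by name, as 6 of the 21755 protein-coding genes of the autosomes and chromosome X, and 2 classical targets of the pathway, Ccn1 (also called Cyr61) and Ccn2 (also called Ctgf), were taken beside them. A peak was assigned to a gene when it overlapped the gene body or the 5 kb on either side, here called the gene window. A peak farther out, up to 100 kb from the gene body, was assigned when the protein-coding start site nearest to its midpoint belonged to the gene. By this rule the 6 genes held 30 of 16788 peaks in replicate 1, 27 of 12969 in replicate 2 and 25 of 13998 in replicate 3.

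The study dissected wild-type whisker pads, of strain B6/J2 at embryonic day 12, into single cells and mapped the mark by CUT&Tag, which uses an antibody-guided transposase to cut out and tag the DNA around a histone mark for sequencing. The series holds 6 samples, 3 made with an antibody against H3K4me1 (n = 3, replicates 1, 2 and 3) and 3 made with control IgG, which were not analysed here, and the labels do not say whether the pads came from separate embryos. There is thus 1 group and no measured background, so the values below are descriptions with their spread over replicates and no test was made. For 4 samples, among them H3K4me1 replicates 2 and 3, the source name is adult kidney, whereas the titles of all samples give whisker pad.

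In the Hippo pathway, a kinase cascade phosphorylates the coactivators YAP and TAZ and keeps them out of the nucleus. When the cascade is off, YAP and TAZ enter the nucleus and bind TEAD proteins, which contact DNA, and genes such as Ccn1 and Ccn2 are switched on. The pathway responds to cell contact, cell shape and tissue stiffness and is known for its part in the growth of organs and of the skin.

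Several properties of the lists bear on every value. The paper states the same sequencing depth for all samples, but the lists hold no read numbers. The usable depth of each list is thus not known here, and a missing peak does not show that the mark was missing. The weakest peak had a total signal, the sum of fragment pileup over its bases, of 14265, 24247 and 19337 in replicates 1, 2 and 3, so signals were compared as percentiles within each list. Replicate 3 held less of its signal in GC-rich regions, and the median GC content was 52.4% for the 2628 regions found in replicates 1 and 2 only and 41.5% for the 2487 found in replicate 3 only. As a check of the tissue, 11 of 12 facial mesenchyme genes had a peak in the gene window in every replicate, against 4 of 10 surface ectoderm genes and 2 of 12 adult kidney genes (Slc12a1 and Cubn), where 15.5% of all protein-coding genes did. The 4 ectoderm genes were Trp63, Grhl2, Grhl3 and Tfap2a, and the strongest peaks of Grhl3 and Tfap2a stood at mean percentiles of 94.3 and 93.5. Krt5 and Cdh1 had a peak in replicates 1 and 2, and Krt14, Epcam, Esrp1 and Perp had none in any replicate. In replicates 1 and 2 taken singly 4 of 12 kidney genes had a peak, with Aqp2 and Pax8 added, where 24.9% and 22.6% of all protein-coding genes did. Kidney genes were thus not free of peaks, and 12 genes are too few to set them apart from these shares. The pad is a mixed tissue, so fewer cells of a type with the mark and less of the mark per cell cannot be told apart.

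Of the 6 genes, Yap1, Wwtr1, Tead1 and Tead3 carried a peak in the gene window in every replicate, and Tead2 and Tead4 did so in replicates 1 and 2. Thus 6 of 6 genes were marked in replicates 1 and 2, where 24.9% and 22.6% of all protein-coding genes were, and 4 of 6 in replicate 3, where 19.6% were. Over all genes, 15.5% had a peak in every replicate. Long genes carry peaks more often, and the share marked in every replicate was 7.1% for genes under 10 kb, 12.2% from 10 to 50 kb, 23% from 50 to 100 kb, 40.5% from 100 to 200 kb and 54.2% from 200 kb. Tead1 belongs to the longest of these classes, Wwtr1 to the next, Yap1 and Tead4 to that of 50 to 100 kb, Tead2 and Tead3 to that of 10 to 50 kb, and both targets to the shortest.

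The peaks were spread unevenly, since Tead1 held 21, 19 and 18 of the peaks of the 6 genes in replicates 1, 2 and 3 and the other 5 genes together held 9, 8 and 7. The median length of the peaks of the 6 genes was 3628, 4694 and 4167 bp, a mean of 4163 ± 533 bp (SD, n = 3), where the whole lists had medians of 2981, 3682 and 3352 bp. Their median total signal stood at percentiles 63.2, 64.9 and 61.9, a mean of 63.3 ± 1.46. Without Tead1 the median percentile was 30.6, 57.0 and 48.8, a mean of 45.5 ± 13.5 and not above the middle of the lists in replicates 1 and 3.

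Peaks of the 3 lists that overlapped by at least 1 bp were merged into regions. The 6 genes had 30 regions, of which 19 were present in every replicate, or 63.3%, where 46.3% of all 19251 regions were. Tead1 again set this share, with 16 of its 20 regions in every replicate, while the other 5 genes had 3 of 10. The place of highest signal lay in an intron in 26 of the 30 regions. Of these 26 regions, 18 belonged to Tead1, where exons make up 9.96 kb of 227 kb. The same count was not made for all regions, so 26 of 30 is not a trait of these genes. In 9 of the 19 regions found in every replicate, the places of highest signal lay within 200 bp of each other in the 3 replicates, as they did in 2874 of all 8917 such regions. The plot of every peak shows this spread of total signal percentiles by gene and replicate.

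**Figure D1:**
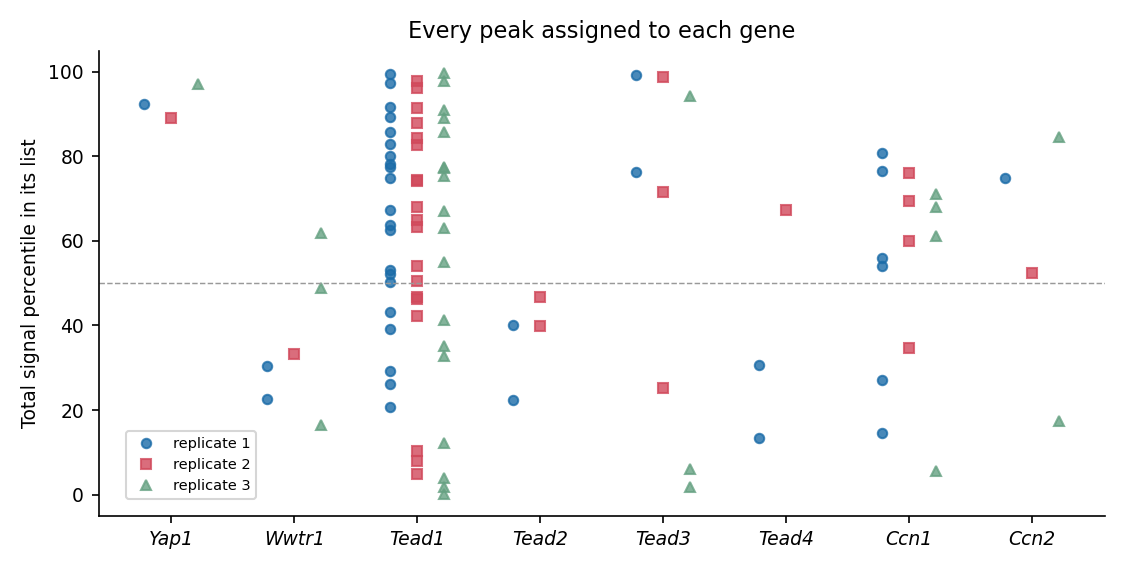
Total signal percentile of every assigned peak (vertical axis, 0 to 100 within the list of its replicate) for the 6 genes and both targets (horizontal axis), where each point is 1 peak, shape and colour give the replicate, and the dashed line marks the middle of the lists. Tead1 spans 20.7 to 99.5, 4.83 to 97.9 and 0.05 to 99.8 in replicates 1, 2 and 3, the single peak of Yap1 sits at 92.5, 89.0 and 97.2, and Tead2 and Tead4 have no point for replicate 3.

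Yap1, which encodes the coactivator YAP, lies at chr9:7931999-8004596 on the minus strand (GRCm38) and is 72.6 kb long. It had 1 peak in each replicate, and this was the same place each time. The peak was 6218 bp long in replicate 1, 5473 bp in replicate 2 and 8372 bp in replicate 3, with total signals of 114427, 138221 and 187243. These stood at percentiles 92.5, 89.0 and 97.2, a mean of 92.9 ± 4.08 (SD, n = 3), so a lone peak of Yap1 was in the upper part of each list. By its maximum signal, the highest pileup within it, the peak stood at percentiles 94.2, 89.1 and 99.5. The merged region, chr9:7957455-7965826, covered parts of introns 3 and 4 and the exon between them. Its places of highest signal lay in intron 4, 44.0 kb into the gene, within 98 bp of each other.

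No peak lay near the start site of Yap1, and the nearest edge was 40749, 40081 and 38770 bp away in replicates 1, 2 and 3. Introns 1, 2, 5 and 6 held none, although intron 2 is 27.5 kb long, and the 100 kb upstream of the gene were free of peaks in every replicate. Peaks covered 7.53, 6.63 and 10.1% of the gene window, a mean of 8.10 ± 1.82%. This was rank 330 of the 2511 genes of 50 to 100 kb, whose median was 0. Among genes of any length with a peak in every replicate, the median was 13.2%, above the mean of Yap1. The GC content of the region was 43.7%, and its share of signal was higher in replicate 3 than in replicate 2 by 0.90 on the log2 scale. The median of this ratio over 1310 regions of like GC content was 0.61, and the part of base composition in the difference was not tested. The 201 bp around the place of highest signal are shown because they are the centre of the only H3K4me1 peak of Yap1. At chr9:7960524-7960724 on the plus strand they contained none of the motifs searched.

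Yap1 intron 4: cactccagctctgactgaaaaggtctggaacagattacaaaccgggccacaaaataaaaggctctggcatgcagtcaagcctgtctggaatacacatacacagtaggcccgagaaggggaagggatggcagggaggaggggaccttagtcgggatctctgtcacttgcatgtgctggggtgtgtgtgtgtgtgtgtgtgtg

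Wwtr1, which encodes TAZ, the paralogue of YAP, lies at chr3:57455649-57575910 on the minus strand and is 120 kb long. It had 2, 1 and 3 peaks in replicates 1, 2 and 3. The only region found in every replicate was chr3:57485885-57489497 in intron 3, 88.3 kb into the gene, and its places of highest signal lay within 3 bp of each other. Its total signal was 18257, 34803 and 43546, at percentiles 22.5, 33.3 and 61.9, a mean of 39.3 ± 20.4. It was thus among the weaker peaks of replicates 1 and 2 and above the middle only in replicate 3. By maximum signal the peak stood at percentiles 5.05, 19.1 and 71.0.

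A further region of Wwtr1 in intron 4, chr3:57470034-57474200, had peaks in replicates 1 and 3, at percentiles 30.5 and 48.8. The start site had a peak near it in replicate 3 alone, which began 1136 bp away and stood at percentile 16.5. In replicates 1 and 2 the nearest edge was 87087 and 86413 bp away, and intron 2, which is 73.0 kb long, held no peak in either. Peaks covered 4.94, 2.77 and 7.79% of the window of Wwtr1, a mean of 5.17 ± 2.52%, at rank 403 of the 1491 genes of 100 to 200 kb. The median of that class was 0.935%. No peak lay in the 100 kb on either side of the gene in any replicate. Both coactivator genes were therefore marked within introns far from the start site, but at levels that did not overlap, at total signal percentiles of 89.0 and more for Yap1 and 61.9 and less for Wwtr1. By total signal divided by length the peak of Yap1 stood at percentiles 91.2, 92.8 and 96.9 and the intron 3 peak of Wwtr1 at 13.5, 18.4 and 68.0, again without overlap.

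The intron 3 region of Wwtr1 is shown as the place of highest signal shared within a few bases. In chr3:57487494-57487694 on the plus strand there was 1 AP-1 motif, TGANTCA, which stands in capitals, and no TEAD motif.

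Wwtr1 intron 3: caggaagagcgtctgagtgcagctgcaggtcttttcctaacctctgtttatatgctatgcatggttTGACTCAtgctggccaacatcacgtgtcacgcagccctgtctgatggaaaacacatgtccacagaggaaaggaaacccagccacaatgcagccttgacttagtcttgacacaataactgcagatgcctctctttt

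Tead1 encodes a TEAD protein found in many tissues and needed in the mouse embryo for the heart. It lies at chr7:112679318-112906807 on the plus strand and is 227 kb long. It had 19, 18 and 17 peaks in the gene window of replicates 1, 2 and 3 (mean 18.0 ± 1.00, SD, n = 3), and 2, 1 and 1 peaks upstream of it. Peaks covered 43.5, 43.5 and 41.0% of the window, or 103, 103 and 97.5 kb. The mean of 42.7 ± 1.43% was rank 5 of the 998 genes of 200 kb and longer, whose median was 1.21%. In that class only Gse1, Prdm16, Glis1 and Zmiz1 were covered more, at means between 43.1 and 51.2%. By mean number of peaks in the window Tead1 held rank 25 of 21755 genes, shared with 2 others, and by the share of all list signal, 0.179, 0.176 and 0.189%, rank 48.

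**Figure D2:**
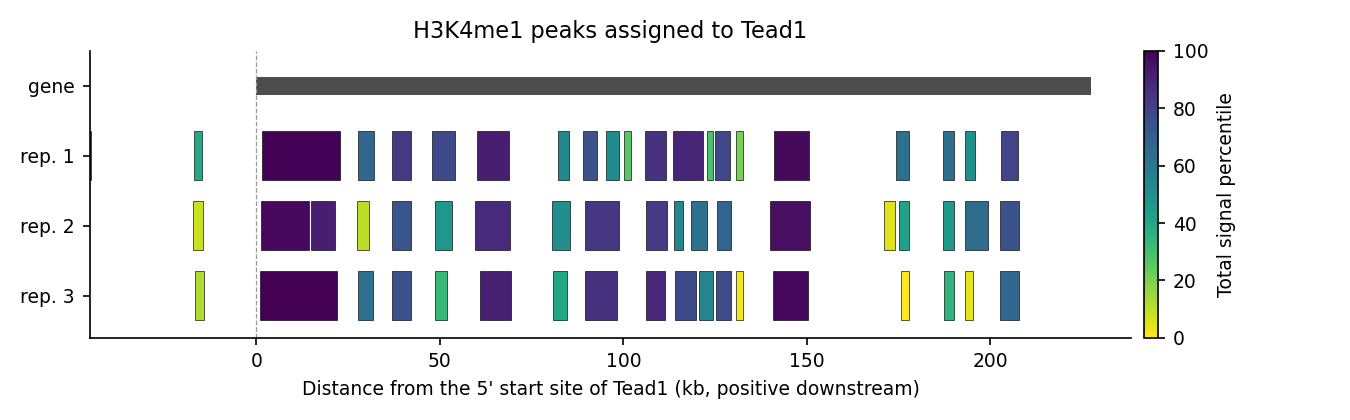
Position of every H3K4me1 peak assigned to Tead1 (horizontal axis, distance in kb from the start site, positive into the gene) in each replicate (rows), coloured by total signal percentile, with the gene body as a grey bar. Peaks of the 3 replicates stand in columns over introns 1 and 2, with the darkest just after the start site and about 147 kb into the gene (146.8 kb).

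Peaks covered more than 50% of each of the long introns 1 and 2 of Tead1. Intron 1, 79.7 kb long, was covered over 57.2, 52.8 and 52.7% of its length, and intron 2, 79.8 kb long, over 54.7, 52.0 and 54.4%. Introns 10 and 11 followed with means of 39.3 ± 6.01 and 36.8 ± 9.53%. Introns 3, 9, 12 and 13 had no peak in any replicate, and peaks covered 2.06 ± 1.01% of the exons. Outside the gene, peaks covered 3.28 ± 1.31% of the 100 kb upstream and 3.25 ± 2.85% of the 100 kb downstream.

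The highest region of Tead1, chr7:112680324-112701990 in intron 1, was 21.7 kb long. Its highest peak was 21.2, 13.0 and 20.9 kb long in replicates 1, 2 and 3, with total signals of 438633, 350298 and 445984. These held ranks 83 of 16788, 279 of 12969 and 33 of 13998, percentiles 99.5, 97.9 and 99.8. The start site itself was outside the region, whose edge began 1446, 1257 and 1006 bp into the gene. In replicate 2 the region was split into 2 peaks, the only one of the 3 lists in which this was so.

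The next region, chr7:112819355-112830161 in intron 2, was 10.8 kb long and stood at percentiles 97.3, 96.2 and 97.9, a mean of 97.1 ± 0.83. Its places of highest signal, 146.8 kb into the gene, were within 1 bp of each other in the 3 replicates. Not all regions of Tead1 were alike in the replicates. Total signal percentiles of its peaks ran from 20.7 to 99.5 in replicate 1, from 4.83 to 97.9 in replicate 2 and from 0.05 to 99.8 in replicate 3, and 5, 6 and 7 of the peaks stood at or below the middle of the lists. The region upstream of the start site that was found in every replicate, chr7:112662115-112664987, had a mean percentile of 19.8 ± 17.0.

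The centres of both high regions are shown because these had the highest mean total signal percentiles at Tead1. The window chr7:112686732-112686932 in intron 1 held none of the motifs searched. The window chr7:112826045-112826245 in intron 2 held the TEAD motif GGAATG 2 times, in capitals as its reverse complement, and both are given on the plus strand.

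Tead1 intron 1: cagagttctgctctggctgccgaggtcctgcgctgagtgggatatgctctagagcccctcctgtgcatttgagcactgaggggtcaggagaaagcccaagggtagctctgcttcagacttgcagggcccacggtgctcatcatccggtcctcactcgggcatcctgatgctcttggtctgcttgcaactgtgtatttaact
Tead1 intron 2: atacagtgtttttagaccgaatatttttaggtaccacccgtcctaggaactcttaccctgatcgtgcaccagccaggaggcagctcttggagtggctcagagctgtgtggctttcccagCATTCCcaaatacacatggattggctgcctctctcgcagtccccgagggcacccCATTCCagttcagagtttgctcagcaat

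Tead3 encodes a TEAD protein abundant in the placenta and also made in other tissues. It lies at chr17:28331671-28350817 on the minus strand and is 19.1 kb long. It had 2, 3 and 3 peaks in replicates 1, 2 and 3, and peaks covered 60.9, 56.9 and 36.9% of its window. The mean of 51.6 ± 12.9% was rank 49 of the 9062 genes of 10 to 50 kb, whose median was 0. Replicate 3 was the lowest, and its main region had a GC content of 57.7%.

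The main region, chr17:28339655-28352967, was 13.3 kb long and filled intron 1, of which 100, 94.0 and 81.6% was covered. Its highest peak had a total signal of 355318, 432746 and 136482, at percentiles 99.2, 98.8 and 94.3, a mean of 97.4 ± 2.71. The share of signal in replicate 3 was lower than in replicate 2, with a log2 ratio of -1.0, and the median ratio over 76 regions of like GC content was also -1.0. The peak covered the start site of Tead3 in replicate 1 and ended 785 and 843 bp from it in replicates 2 and 3. A region in intron 10, chr17:28332094-28336871, had peaks in replicates 1 and 2 at a mean percentile of 73.9 ± 3.35 (SD, n = 2). Neighbours share this stretch, since the main region also overlapped Tulp1, and the remaining region of the window, chr17:28328926-28331420 in replicates 2 and 3, overlapped Rpl10a and not Tead3.

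The centre of the main region, chr17:28344709-28344909 on the plus strand, is shown because intron 1 of Tead3 was covered more fully than any other intron of at least 2 kb in the 6 genes. It held 1 TEAD motif, in capitals as the reverse complement.

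Tead3 intron 1: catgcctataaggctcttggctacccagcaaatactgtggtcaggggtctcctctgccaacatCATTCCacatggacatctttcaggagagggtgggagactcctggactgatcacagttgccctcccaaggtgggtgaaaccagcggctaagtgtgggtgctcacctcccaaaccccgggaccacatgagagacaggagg

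Tead2 encodes a TEAD protein of the early embryo and neural progenitors, and Tead4 encodes the one that is needed for the trophectoderm, the outer layer of the blastocyst. Both had peaks in replicates 1 and 2 and none in replicate 3. Tead2, at chr7:45215753-45233644 on the plus strand, had 2 peaks in each of these replicates. The peak at its start, in the region chr7:45215162-45219414, had total signals of 18245 and 42455, at percentiles 22.5 and 46.7. It covered the start site in replicate 2 and began 359 bp away in replicate 1. The second region, chr7:45231963-45236295, lay at the far end of the gene at percentiles 40.1 and 39.9 and overlapped Cd37 as well.

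Tead4, at chr6:128224288-128300823 on the minus strand, had 2 peaks in replicate 1 and 1 in replicate 2, which merged into 1 region, chr6:128295767-128301103. It lay over intron 1, covered the start site in replicate 2 and began 366 bp from it in replicate 1, and its highest peak stood at percentiles 30.6 and 67.3. Peaks covered 4.73, 5.92 and 0% of the window of Tead4, and 17.5, 30.6 and 0% of that of Tead2. In replicate 3 the nearest peak was 163107 bp from the start site of Tead4 and 319471 bp from that of Tead2. The former lay downstream of Tead4, where 1 peak in each replicate covered 14.2, 14.2 and 13.4% of the 100 kb past the gene and was assigned to Tspan9. Tead2 and Tead4 were thus marked at the start, where Yap1 had no peak and Wwtr1 had one in replicate 3 alone.

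The regions of Tead2 had a GC content of 54.0 and 55.5%, and that of Tead4 of 55.2%. Of all regions of such GC content, within 1 percentage point, that had a peak in replicates 1 and 2, 51.3, 46.0 and 46.9% also had a peak in replicate 3. For regions with the GC content of the Yap1 region, 98.2% did. Whether base composition accounts for the missing peaks of Tead2 and Tead4 was not tested. The plot of GC content shows where these regions stand among all regions.

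**Figure D3:**
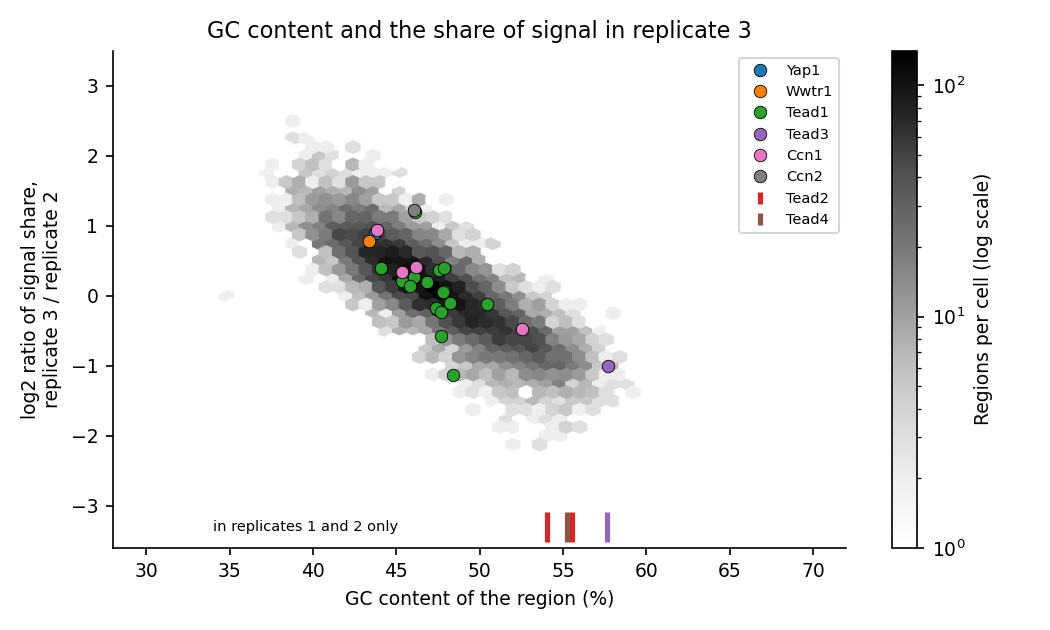
GC content in percent (horizontal axis) against the log2 ratio of the share of signal in replicate 3 to that in replicate 2 (vertical axis) for the 8917 regions in every replicate, in grey by number on a log scale, with the regions of each gene as coloured points and vertical bars at the bottom for regions in replicates 1 and 2 only. GC-rich regions have lower ratios, and the Yap1 region (0.90) and the Tead3 main region (-1.0) lie on the band of all regions. The bars of Tead2 and Tead4 stand at 54.0, 55.5 and 55.2%, and that of the Tead3 region in intron 10 at 57.7%.

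Across the 6 genes the mean share of the gene window under peaks ran, from high to low, in the order Tead3, Tead1, Tead2, Yap1, Wwtr1 and Tead4. Tead3 and Tead1 are neighbours in this order that did not differ beyond their spread, as replicate 3 of Tead3, at 36.9%, was below all values of Tead1. Tead2, Yap1 and Wwtr1 likewise each overlapped in their values with the next in order. All values of Tead1 and Tead3 were above all values of the other 4 genes, the highest of which was 30.6% for Tead2 in replicate 2. The order within both sets of genes changed with the peaks, replicates and flanks used. With the stronger 50% of each list Tead2 was at 0% and Wwtr1, at 0.86%, was below Tead4, at 1.97%, and without replicate 2 Tead2, at 8.74%, was below Yap1, at 8.83%. Without replicate 3 Wwtr1, at 3.86%, was below Tead4, at 5.32%, and with flanks of 20 kb Tead3, at 32.7%, was below Tead1, at 39.5%.

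**Figure D4:**
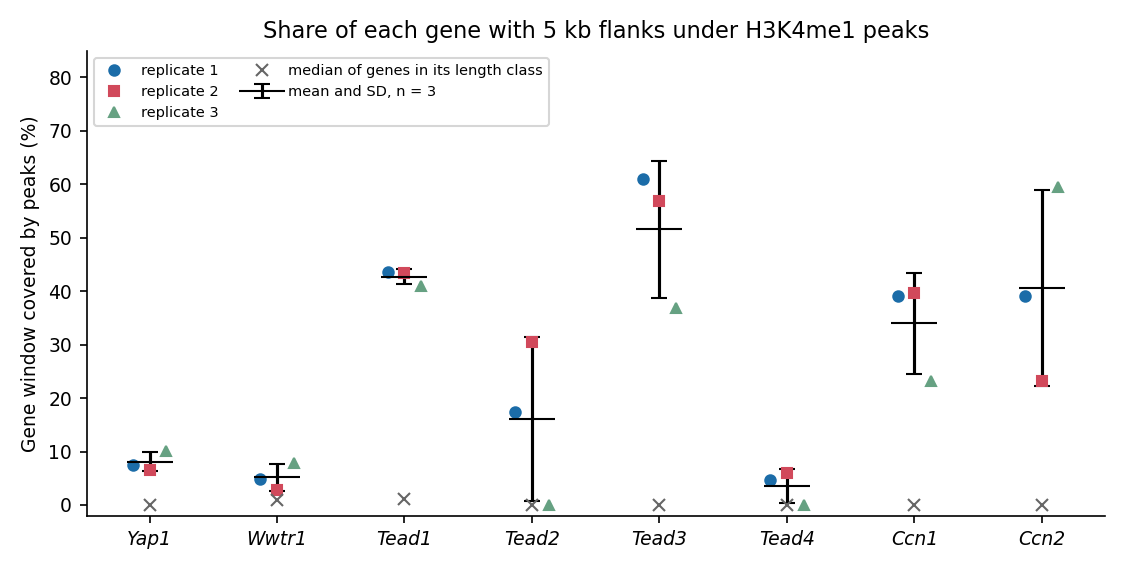
Percent of the gene window, the gene body with 5 kb on either side, covered by H3K4me1 peaks (vertical axis) for the 6 genes and both targets (horizontal axis), with 1 point per replicate, bars for the mean and SD (n = 3) and crosses for the median of all genes in the same class of length. Tead1 lies between 41.0 and 43.5%, Tead3 between 36.9 and 60.9%, and the crosses lie between 0 and 1.21%.

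For each of the 4 genes marked in every replicate, the 2 genes most like it were those of a length within 25% of its own with the smallest summed difference in coverage over the 3 replicates. For Yap1 these were Lrpprc and Gm28635, with summed differences of 0.896 and 3.28 percentage points among 1865 genes. For Wwtr1 they were Flrt2 and Lypd6, with 0.844 and 0.992 points among 1334 genes. The nearest to Tead1 were Tspan9 and Ror2, at 10.3 and 10.5 points among 619 genes. In replicates 1, 2 and 3, Tspan9 was covered over 46.2, 43.5 and 33.4% and Ror2 over 50.3, 43.8 and 37.6%. Tead1 was covered over 43.5, 43.5 and 41.0%, so both were higher than Tead1 in replicate 1 and lower in replicate 3. For Tead3 they were Mdfi and Ephb3, at 9.04 and 14.4 points among 3025 genes.

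Ccn1 and Ccn2 encode secreted matrix proteins that bind integrins and are switched on by YAP and TAZ with TEAD proteins. Both carried a peak in the window in every replicate. Ccn1, at chr3:145646976-145649981 on the minus strand and 3.01 kb long, had 6, 4 and 4 peaks, of which 5, 3 and 3 lay outside the window. The region next to the start site, chr3:145649736-145654887, stood at percentiles 76.6, 76.2 and 61.2, a mean of 71.3 ± 8.76, and lay almost wholly upstream. It covered the start site in replicates 1 and 2 and ended 443 bp from it in replicate 3.

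Of the regions of Ccn1 found in every replicate, the one with the highest mean percentile, chr3:145701948-145706535, lay 53.7 kb upstream of the start site at percentiles 80.7, 69.4 and 77.2, a mean of 75.8 ± 5.79. In replicate 2 the peak next to the start site, at 76.2, stood above it. It lies midway to Ddah1, and in replicate 3 the midpoint of the peak was 54.2 kb from the start site of Ddah1 and 54.5 kb from that of Ccn1, so that peak was not assigned to Ccn1. Peaks covered 14.1, 12.5 and 12.9% of the 100 kb upstream of Ccn1 and 4.35, 3.47 and 3.69% of the 100 kb downstream. Ccn1 thus had peaks mostly outside its window, where Yap1 and Wwtr1 had all of theirs within the gene body. Ccn2, also short, had 1 peak in its window in each replicate and 1 outside it in replicate 3 alone. The window widens with gene length, so the rule itself bears on where peaks are counted.

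The 250 bases before the start site of Ccn1 in RefSeq (GRCm38.p6, chr3:145649986-145650235, minus strand, written in the direction of the gene) are shown because this is a classical target and the peaks of replicates 1 and 2 lay over them. They held 1 TEAD motif, in capitals as the reverse complement, 103 bases before the start.

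Ccn1 promoter: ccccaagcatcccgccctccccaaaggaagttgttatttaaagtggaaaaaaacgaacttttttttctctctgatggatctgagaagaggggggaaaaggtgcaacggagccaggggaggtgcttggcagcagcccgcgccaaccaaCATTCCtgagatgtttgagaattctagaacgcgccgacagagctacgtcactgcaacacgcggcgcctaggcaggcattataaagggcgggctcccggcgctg

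Ccn2, at chr10:24595442-24598683 on the plus strand and 3.24 kb long, had 1, 1 and 2 peaks. The region chr10:24589690-24598332 covered its start site in every replicate, at percentiles 74.9, 52.4 and 84.6, a mean of 70.6 ± 16.5. Its peak was 5179, 3061 and 8643 bp long and covered 39.1, 23.1 and 59.6% of the window, highest in replicate 3 and lowest in replicate 2. The places of highest signal were up to 5030 bp apart, so the replicates placed the top of this region differently. The log2 ratio of its share in replicate 3 to that in replicate 2 was 1.22, where the median over 1757 regions of like GC content was 0.30. No peak lay in the 100 kb downstream of Ccn2 in any replicate.

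**Figure D5:**
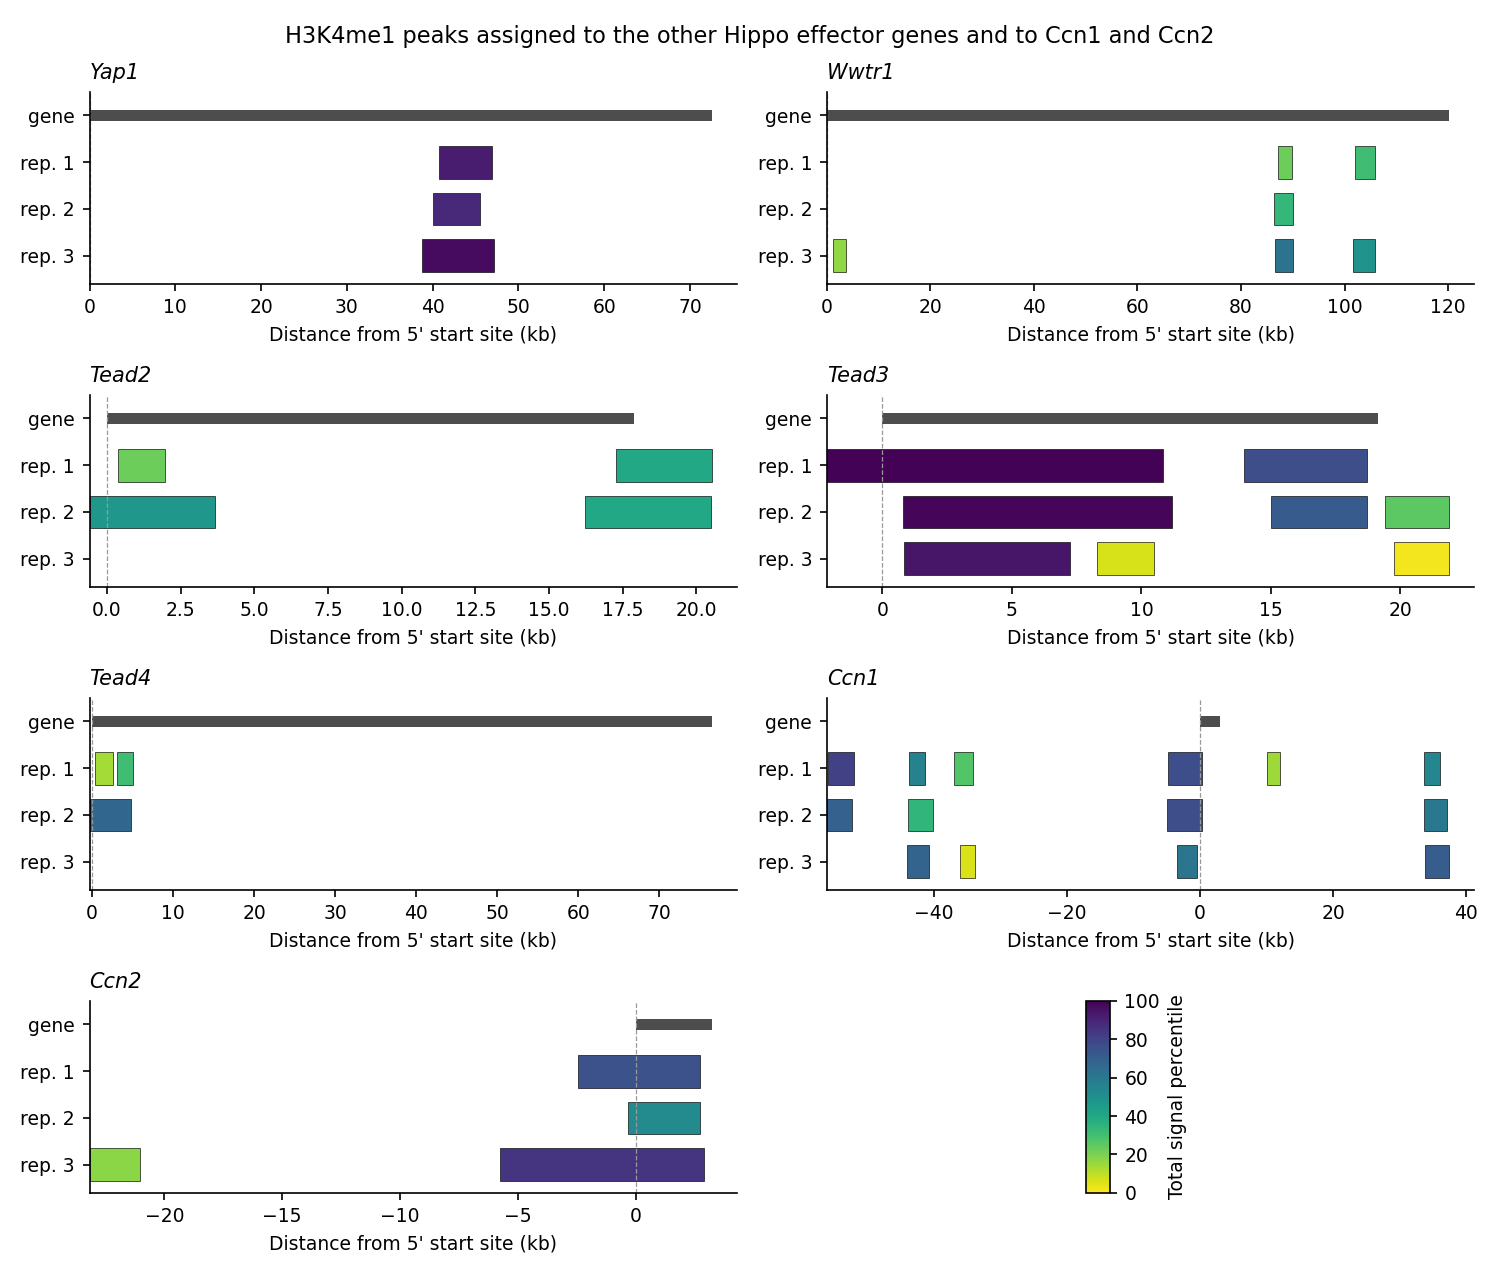
Position of every assigned H3K4me1 peak (horizontal axes, distance in kb from the start site, positive into the gene, with a different scale for each gene) for Yap1, Wwtr1, Tead2, Tead3, Tead4, Ccn1 and Ccn2 in each replicate (rows), coloured by total signal percentile, with the gene body as a grey bar. The peak of Yap1 stands 44.0 kb into the gene, the peaks of Tead2 and Tead4 are missing in replicate 3, and those of Ccn1 lie on both sides of the gene.

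The word GGAATG, the core of the sequence that TEAD proteins bind, was counted on both strands in the 201 bp around the place of highest signal. It was present in 3 of the 19 regions of the 6 genes found in every replicate, or 15.8%, and in 12.9% of 8916 regions of the whole lists. These 3 were the main region of Tead3 and 2 regions in intron 2 of Tead1. It was also present in 2 of 5 regions of the targets, both in regions of Ccn1 outside its window. The AP-1 word TGANTCA was in 2 of 19 regions, or 10.5%, against 6.37% of all, and the TCF and LEF words CTTTGAA and CTTTGAT were in 0 of 19, against 5.97%. In the 250 bases before the start, the TEAD word was present in 12.6% of 32851 RefSeq promoters. For Yap1, Wwtr1, Tead2 and Tead3, the RefSeq start site nearest to the start site used here was taken. The TEAD word was found 1 time each there for Yap1, Wwtr1 and Tead3 and 0 times for Tead2. At further RefSeq start sites of Tead3, 217 and 471 bp into the gene, it was found 2 and 0 times. A match of these letters is not evidence of binding.

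The rest of the pathway was read from 4 lists of 36 genes, of which 19 carried a peak in the gene window in every replicate, 12 carried none in any and 5 in some. These genes are long on the whole, and by class of length the counts were 0 of 4 under 10 kb, 6 of 13 from 10 to 50 kb, 4 of 8 from 50 to 100 kb, 8 of 10 from 100 to 200 kb and 1 of 1 above. They are set against the shares of all genes in each class given above. Over all genes of any length, 15.5% had a peak in every replicate, and this share stands beside the counts of each list below. The median over the 36 genes of the mean window coverage was 7.13%.

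Among the kinase module, 7 of 14 genes had a peak in every replicate and the other 7 had none. Map4k4, a kinase that can activate LATS, was highest, with its strongest peak at percentiles 99.4, 98.7 and 99.2 and 37.5 ± 1.35% of its window covered. Wwc2 and Wwc1, scaffolds of the KIBRA family, followed at means of 84.5 ± 3.63 and 75.03 ± 17.3, and Lats2, a kinase that phosphorylates YAP directly, at 64.9 ± 20.5. Stk4, Taok2 and Stk3, also kinases, stood at means of 53.1, 44.9 and 27.2. Sav1, Lats1, Mob1a, Mob1b, Nf2, Taok1 and Taok3 had no peak in any replicate, so Lats2 had peaks and its paralogue Lats1 did not.

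Regulators at junctions and the cytoskeleton were the list with the largest share marked, with 8 of 10 genes in every replicate and a median coverage of 15.8%. The lists differ in the lengths of their genes and were not compared within classes of length, so this order may follow length. Amotl2 and Amotl1, angiomotin-like proteins that bind YAP, stood at 98.7 ± 0.66 and 92.6 ± 1.95 for the strongest peak, Frmd6, a FERM domain protein, at 90.5 ± 3.87 and Dchs1, a cadherin of planar polarity, at 90.1 ± 4.89. Ajuba, Fat4, Limd1 and Ptpn14 lay between 80.9 and 88.5. Amot had a peak in replicates 1 and 3, and Wtip had none.

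Of the vestigial family, whose members bind TEAD proteins in place of YAP, Vgll4 alone had a peak in every replicate. Its strongest peak stood at percentiles 99.9, 99.8 and 99.9, and 41.4 ± 1.01% of its window was covered, where Tead1 had 42.7 ± 1.43%. Vgll3 had peaks in replicates 1 and 3, and Vgll1 and Vgll2 had none. Of the 8 other targets, Crim1, Tgfb2 and Axl had a peak in every replicate, at means of 80.5 ± 6.72, 52.9 ± 15.1 and 45.4 ± 13.0. F3, Birc5 and Myof had a peak in 1 or 2 replicates, and Ankrd1 and Areg had none.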

How the data were processed

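The authors ran SEACR 1.3 (stringent) on each replicate by itself and without IgG, keeping the top 1% of signal blocks. The submitters' processing notes also name Bowtie2 2.3, SAMtools 0.1.19, bedtools and mm10. The deposited signal columns, total and maximum, hold whole-number pileup not scaled to depth, so percentiles within each list were used. A fixed share of blocks was kept, so numbers of peaks are no measure of enrichment. All peaks ended within GRCm38 chromosome lengths.

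Genes came from GENCODE vM21 (21755 protein-coding genes, 41135 start sites of basic transcripts), and the most 5' site was taken as the start site. Coordinates are 1-based. A percentile is the share of peaks in a list with an equal or lower signal. The log2 ratio between replicates used shares of the signal in regions found in every replicate. Computations used pandas 2.3.3, numpy 2.4.6 and pysam 0.24.0 and were tested on simulated intervals. The genes and lists were chosen with earlier results of these data known. All 6 genes and both targets are named, as are list genes with a peak in every replicate or in none, and the 2 genes most like each member. With 1 group, no test was made. Promoters of Tead1, Tead4 and Ccn2 were not used here. Alternatives covered flanks, distal limits, stronger peaks, joining of peaks, other signal measures, motif windows and leaving out each replicate.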

Additional observations from a re-analysis of the deposited data

How the results depend on the processing

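Of 152 alternative values for 18 results under 16 settings, 125 moved by less than the spread between replicates, or, for counts, stayed within 1.5 times. For results judged by that spread, leaving out a replicate cannot move the mean by as much. Those values were bound to be among the 125 and do not show stability. The mean coverage of Tead2, for example, went from 16.0% to 8.74% without replicate 2 and still counted as unmoved. No paired analysis was possible because only 1 group, H3K4me1, was analysed here, and the IgG samples with equal replicate numbers were not. With the stronger 50% of each list the 6 genes had a mean of 16.7 peaks with a median length of 5291 bp, a median percentile of 56.2 and 11 regions in every replicate. With the strongest 10000 peaks the median length was 4944.5 bp. The median percentile was 61.5 with flanks of 20 kb, 56.8 by maximum signal and 51.8 by total signal divided by length. The mean coverage over the 6 genes and both targets was 25.2%, and it was 20.8% with the stronger 50% of each list, 29.4% with no flank and 14.7% with flanks of 20 kb. With no flank 1 target had a peak in every replicate. The TEAD motif was in 6 of 19 regions in windows of 500 bp, where 29.3% of all regions held it, and in 19 of 19 over whole regions, where 93.9% did. With replicate 3 left out, 6 of the 6 genes had a peak in every replicate, and with the stronger 50% or the strongest 10000 peaks 3 did, without Wwtr1. The usable depth of each list is not known here, so it cannot be said how many weak regions each list missed.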
